A study of Mus musculus with 4 samples.

Results

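Tenomodulin (Tnmd) and chondromodulin, its paralogue, whose gene is listed as Lect1, were examined together with the tendon transcription factors scleraxis (Scx) and mohawk (Mkx). These 4 of the 23537 genes in the deposited count table were chosen by gene name, with their difference between Mbd4-deficient and wild-type cells already known, so their own changes are given as a description and were not tested. RNA came from subconfluent cultures of MEFs, that is, fibroblasts cultured from the connective tissue of mouse embryos, here of the C57BL/6 strain and at day 12.5 post coitum. There were 2 libraries from Mbd4-/- cells (KO) and 2 from Mbd4+/+ cells (WT), and the labels name no drug or other agent for either genotype. MBD4 is a DNA glycosylase that binds methylated CpG sites and removes the mismatched thymine left when methylcytosine loses its amino group. The labels name no Cre driver or transgene, and neither the embryos per library nor their sex is stated there.

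Tenomodulin and chondromodulin are type II membrane proteins that share a BRICHOS domain, a fold found in several precursor proteins, and a cysteine-rich end with anti-angiogenic activity. Tenomodulin is the textbook marker of mature tendon and ligament cells. Chondromodulin is made by cartilage, released from the cell surface and keeps blood vessels out of the tissue. Scleraxis, a basic helix-loop-helix factor, marks tendon progenitors and is known to drive Tnmd, and mohawk, a homeobox factor, acts in the later maturation of tendon.

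Since the study concerns CpG methylation, and since scleraxis is a factor of the class that binds E-boxes, the promoters of the paralogous pair are printed with their CpG sites in capitals, together with any E-box (CANNTG). Each runs 5′ to 3′ on the strand of its gene, from 250 bases before the RefSeq start of transcription to 50 after it. The sequences are RefSeq's, from its GRCm38 table, and each matched the mm9 genome used for the counts at exactly 1 place on its chromosome. Promoters are given for 2 of the 4 genes, with Lect1 listed there under its current symbol Cnmd. Scx had no entry in that set, and the promoter of Mkx was not examined. The Tnmd promoter lies on the plus strand at chrX:130385297-130385596, and that of Lect1 on the minus strand at chr14:80061941-80062240.
Tnmd promoter: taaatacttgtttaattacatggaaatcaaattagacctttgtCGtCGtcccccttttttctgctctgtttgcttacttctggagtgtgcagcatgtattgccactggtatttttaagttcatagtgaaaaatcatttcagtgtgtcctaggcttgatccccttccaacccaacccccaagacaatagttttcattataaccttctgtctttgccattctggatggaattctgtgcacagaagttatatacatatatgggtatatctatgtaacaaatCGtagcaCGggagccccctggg
Lect1 promoter: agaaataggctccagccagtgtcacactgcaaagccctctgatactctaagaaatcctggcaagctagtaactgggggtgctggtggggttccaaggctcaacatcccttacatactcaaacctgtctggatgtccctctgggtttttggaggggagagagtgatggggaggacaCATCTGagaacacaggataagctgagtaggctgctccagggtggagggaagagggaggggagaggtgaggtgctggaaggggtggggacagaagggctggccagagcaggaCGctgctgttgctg
Both promoters held fewer CpG sites than the median promoter. The Tnmd promoter held 4 CpG sites at a GC content of 40%, and 37.7% of the 32544 RefSeq promoters of the same length had as few or fewer. That of Lect1 held 1 CpG site at a GC content of 56%, with 14.0% of promoters at or below that number. The median promoter had 7 CpG sites and a GC content of 53%. The Lect1 promoter held 1 E-box, CATCTG, from 75 to 70 bases before the start, and that of Tnmd held 0. E-boxes were found in 72.3% of all promoters. A further 3 motifs were searched on both strands, and the paralogous pair held none of them. The GC box, read as GGGCGG, was found in 35.9% of promoters. The TATA box, read as TATAAA, was found in 13.6%. The core of sites for HMG box factors such as SOX9, read as AACAAT, was found in 10.6%. A match or its absence describes only the letters of this window.

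The libraries held 45223089 and 39108275 counts (KO) and 47567835 and 42796997 counts (WT). Over all 15538 genes with enough reads to be tested by edgeR's quasi-likelihood test, 34.3% were higher and 32.5% lower in KO cells at a Benjamini-Hochberg adjusted p of 0.05. At an adjusted p of 0.01 with a log2 fold change of at least 2 in size, 5.79% were higher and 3.15% lower. Scaling to library totals in place of TMM moved the first split from 5335 higher and 5045 lower genes to 6628 and 3964. Mbd4 was read 373 and 302 times in KO and 663 and 630 times in WT cells, a log2 fold change of -0.99 ± 0.11 (SE, adjusted p = 2.8e-06), so that reads of the targeted gene were lower but not absent in the libraries labelled KO. All 12 fibroblast and mesenchyme markers passed the filter, with Vim the most abundant per kb of transcript. Their summed level was 13340 and 14457 CPM (counts scaled to the same depth) in KO against 23722 and 21461 in WT cells. The markers did not move together, since 2 rose, 6 fell and 4 did not pass an adjusted p of 0.05. The paper's methods call the 2 RNA samples of a genotype independent. Neither they nor the labels say whether these came from separate embryos or cultures. The p-values therefore reflect the spread among these samples alone, which may be technical. For a single value, the smallest two-sided p of an exact permutation test with 2 libraries on each side is 0.333.

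Tnmd and Lect1 exchanged places between the genotypes. Tnmd (ENSMUSG00000031250, plus strand of chromosome X of mm9, 130385519 to 130400116) was read 10577 and 8605 times in the KO libraries and 121 and 103 times in the WT libraries. Scaled to depth, its level was 223 and 209 CPM in KO (216 ± 9.74, SD, n = 2) and 2.70 and 2.51 CPM in WT cells (2.61 ± 0.132). Both KO libraries were high, both WT libraries were low and the groups were far from overlapping. The fitted log2 fold change of Tnmd was 6.37 ± 0.09 (SE), an 82.7-fold higher mean CPM in KO cells. In bulk RNA a larger share of cells expressing a gene and more RNA per cell cannot be told apart.

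Lect1 (ENSMUSG00000022025, minus strand of chromosome 14, 80037497 to 80061977) went the other way. It was read 205 and 178 times in the KO libraries and 7465 and 7103 times in the WT libraries. Its level was 4.31 and 4.32 CPM in KO (4.32 ± 0.00374, SD, n = 2) and 167 and 173 CPM in WT cells (170.0 ± 4.75). Here both WT libraries were high and both KO libraries low, again with no overlap. The fitted log2 fold change of Lect1 was -5.30 ± 0.08 (SE), with a 39.4-fold higher mean CPM in WT cells.

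Each paralogue was thus abundant in 1 genotype and scarce, though still counted in every library, in the other. Ranked by CPM per kb among the genes tested, Tnmd stood at place 273 in KO and at place 10585 in WT cells. Lect1 stood at place 553 in WT and at place 10212 in KO cells. Among the 4633 genes with a mean of at least 50 CPM, 6 rose more than Tnmd and 2 fell more than Lect1. Both paralogues reach that mean only through the genotype in which they are high, so these ranks are a description alone. Among all genes tested, Tnmd held place 105 from the largest rise and Lect1 place 88 from the largest fall.

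The ratio of the paralogues within a library does not depend on how libraries are scaled to each other. Per kb of transcript, Tnmd exceeded Lect1 by 60.3 and 56.5 times in the KO libraries. Lect1 exceeded Tnmd by 52.8 and 59.1 times in the WT libraries. The log2 ratio of Tnmd to Lect1 was 5.87 ± 0.0664 in KO and -5.80 ± 0.114 in WT cells (SD, n = 2), a difference of 11.67. The cells of each genotype thus carried a similar excess of 1 paralogue over the other, in opposite directions.

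**Figure D1:**
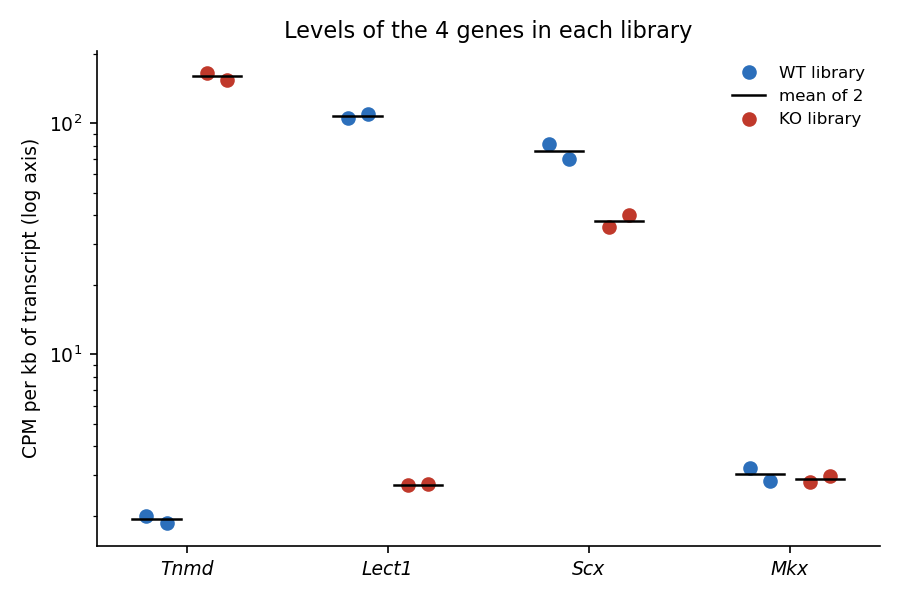
Level of Tnmd, Lect1, Scx and Mkx in CPM per kb of transcript (log axis) in the 2 WT (blue) and 2 KO libraries (red), with a black bar at the mean of each pair. Tnmd lies at 154 and 164 in KO and at 1.86 and 2.0 in WT cells, Lect1 lies at 2.73 in both KO and at 105 and 110 in the WT libraries, and only Mkx has overlapping groups.

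Scx, the factor known to drive Tnmd, was lower in the cells with more Tnmd. Scx (ENSMUSG00000034161, plus strand of chromosome 15, 76287868 to 76289898) was read 1912 and 1867 times in the KO libraries and 4118 and 3272 times in the WT libraries. These counts correspond to 40.2 and 45.3 CPM in KO (42.8 ± 3.58, SD, n = 2) and to 91.9 and 79.9 CPM in WT cells (85.9 ± 8.54). The groups did not overlap, and the fitted log2 fold change of Scx was -1.01 ± 0.08 (SE). The gene lies whole within Bop1, a ribosome assembly factor on the other strand, with which it shares 0 exonic bases. Bop1 was read 3350 and 2976 times in KO and 7406 and 5634 times in WT cells and fell by 1.09 ± 0.08 on the log2 scale (adjusted p = 4.6e-08). The ratio of Scx to Bop1 reads was 0.571 and 0.627 in KO cells against 0.556 and 0.581 in WT cells, values that overlap between the genotypes. The kit kept the strand, but no source used here says whether the counting did, and the part of Bop1 reads in the count of Scx was not tested.

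Mkx differed little. Mkx (ENSMUSG00000061013, minus strand of chromosome 18, 6934964 to 7004777) was read 456 and 421 times in the KO libraries and 498 and 398 times in the WT libraries. Its level was 9.59 and 10.2 CPM in KO (9.90 ± 0.438, SD, n = 2) and 11.1 and 9.72 CPM in WT cells (10.4 ± 0.993). The values of the groups overlapped, and the fitted log2 fold change of -0.07 ± 0.12 (SE) was 0.07 when libraries were scaled to their totals. Per kb, Scx exceeded Mkx by 12.7 and 13.4 times in KO cells and by 25 and 24.9 times in WT cells.

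Per kb, the order of the 4 genes in KO cells was Tnmd (159 ± 7.2 CPM per kb, SD, n = 2), Scx (37.6 ± 3.15), Mkx (2.88 ± 0.127) and Lect1 (2.73 ± 0.00237). In WT cells it was Lect1 (108 ± 3.0), Scx (75.6 ± 7.52), Mkx (3.03 ± 0.289) and Tnmd (1.93 ± 0.0979). Scx was second in both genotypes. Mkx and Lect1, neighbours in KO cells, did not overlap (2.79 and 2.97 against 2.73 in both libraries), but their means lay little more than 1 SD of Mkx apart. Every other step in either order was larger than the spread of its libraries.

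**Figure D2:**
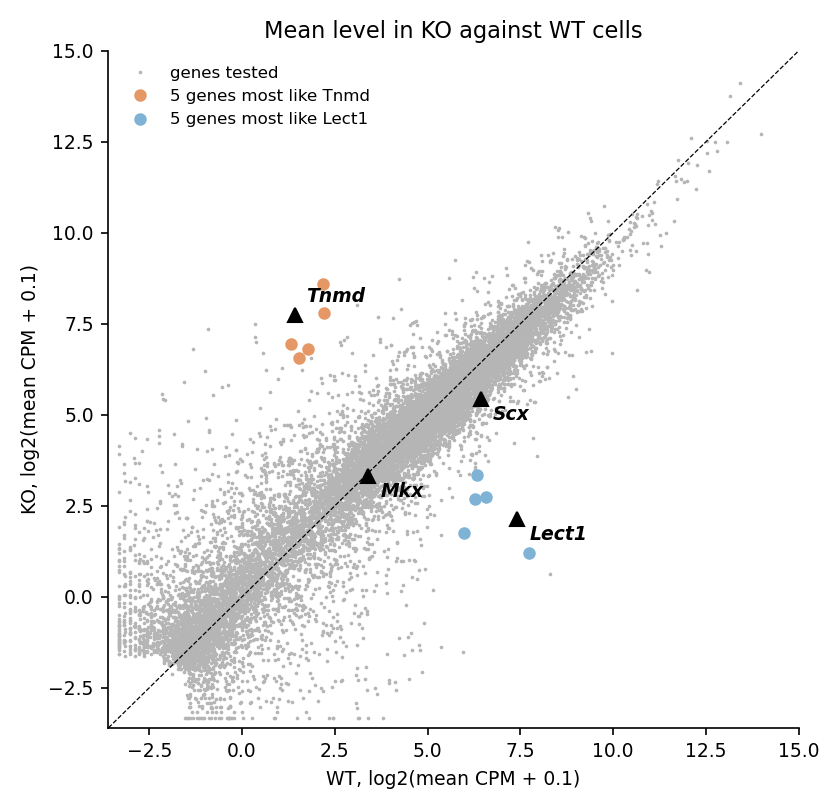
Mean CPM of the 15538 genes tested in KO (vertical) against WT cells (horizontal), both as log2(mean CPM + 0.1), with the dashed line at equal levels, the 4 genes as black triangles and the 5 genes most like Tnmd or Lect1 as coloured points. Tnmd stands far above the line and Lect1 far below it, Scx lies below it at -1.01 and Mkx on it at -0.07.

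Likeness to each paralogue was measured by the Euclidean distance of log2 CPM over the 4 libraries. Both the level of a gene and its difference between genotypes enter this distance. The 5 genes most like each paralogue by it are named. For Tnmd they were Fras1, an extracellular matrix protein of the skin basement membrane, at a distance of 1.13, the metalloreductase Steap4 at 1.18, the membrane protein gene Tmem178 at 1.42, the secreted signal Wnt16 at 1.61 and the glypican Gpc3 at 1.71. Their fitted log2 fold changes ran from 5.05 (Gpc3) to 6.44 (Wnt16). For Lect1 they were Gjb2, a connexin, at 1.45, the imprinted gene Peg10 at 1.53, the BMP antagonist Grem1 at 1.77, the lipoprotein receptor Vldlr at 2.09 and the procollagen processing enhancer Pcolce2 at 2.32. Their log2 fold changes ran from -6.58 (Gjb2) to -2.98 (Pcolce2). Gpc3 is on chromosome X with Tnmd and Gjb2 on chromosome 14 with Lect1, while the others lie on other chromosomes.

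The other genes known for tendon were read beside Tnmd. Of 26 listed regulators and signals of tendon, leaving out Scx and Mkx, 24 were tested, of which 9 rose, 8 fell and 7 did not pass an adjusted p of 0.05, with a median log2 fold change of -0.12 beside 0.02 over all genes tested. These counts were close to the shares over all genes, 34.3% higher and 32.5% lower. Past the stricter limits were 4 higher and 3 lower genes, against 5.79% and 3.15% of all genes. Among those that rose was Egr2, a zinc finger factor of tendon collagen expression, at 2.22 ± 0.16 (SE, log2 fold change, adjusted p = 5.0e-08). The joint and tendon ligand Gdf5 rose by 2.32 and the TGF-beta co-receptor Tgfbr3 by 1.96. Gdf7, a ligand related to Gdf5 and named here after its values were seen, had 46 and 53 KO reads and 0 in WT cells, at least 31.9-fold higher against a floor of 3 reads over the group. Etv4, an ETS factor that answers FGF signals, fell by 4.14 ± 0.20 (adjusted p = 9.0e-10). Eya2, a transcriptional coactivator, was at -2.61 and the ligands Tgfb2 and Tgfb1 were at -2.28 and -1.54, all past the test. Tgfb3, the most abundant gene of the list, fell by 0.48, from 574 ± 20.7 to 410 ± 8.07 CPM (SD, n = 2).

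In the matrix of tendon and fibrous tissue, falls outnumbered rises. Of 31 listed genes 27 were tested, of which 8 rose, 16 fell and 3 did not pass, with a median of -0.51, and 5 higher and 3 lower genes were past the stricter limits. Over all genes 34.3% rose and 32.5% fell, and 5.79% and 3.15% were past the stricter limits. Col1a2, a chain of type I collagen and the most abundant of them, fell by 0.36 on the log2 scale (adjusted p = 0.0012). Serpinh1, the collagen chaperone, fell by 1.64 and tenascin C (Tnc), a matrix protein of developing tendon, by 2.05. The small proteoglycan decorin (Dcn) was nearly lost in KO cells, with 5 and 7 reads against 1349 and 1123 in WT cells, a log2 fold change of -7.70 ± 0.19 (SE). Lumican (Lum), a related proteoglycan, had 0 and 1 KO reads against 142 and 131, a WT level 283 times higher (exact 95% interval 50.3 to 11200.4, counting error only). Rises were seen in thrombospondin 2 (Thbs2), a regulator of collagen fibril assembly, by 4.52 ± 0.10 (adjusted p = 6.0e-13), in Prelp by 3.72, in the fibril-associated collagen Col14a1 by 2.94 and in Col6a2, a chain of the microfibrillar type VI collagen, by 2.24. The summed level of the list was 20731 and 21707 CPM in KO and 35111 and 31710 CPM in WT cells, lower as was that of the fibroblast markers given above, which share collagen genes with it, and the part of that shift was not tested.

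The cartilage genes were read beside Lect1. Of 27 listed factors and matrix genes 19 were tested, of which 7 rose, 9 fell and 3 did not pass, with a median of -0.83, and 3 genes in each direction were past the stricter limits. The count that rose was close to the 34.3% over all genes, where 32.5% fell. Over all genes 5.79% were higher and 3.15% lower past the stricter limits. Col2a1, the main collagen of cartilage, was read 3939 and 3902 times in KO and 15898 and 13098 times in WT cells and fell by 1.93 ± 0.08 (SE, log2, adjusted p = 1.1e-10). The factors Sox6, Runx3 and Nkx3-2 fell by 1.73, 2.01 and 2.42. Sox9, the master factor of cartilage, named here after its values were seen, had 671 and 742 KO reads against 1222 and 1472 and fell by 0.98 ± 0.13 (adjusted p = 1.7e-05). Other genes of the list rose, with Sox5, which acts beside SOX9 and SOX6, at 2.16, the growth factor receptor Fgfr3 at 2.26 and Col11a2, a chain of the cartilage collagen fibril, at 1.78. Type IX collagen, which coats that fibril, was divided between its chains. Col9a2 had 112 and 95 KO reads against 2 and 0 in WT cells, a KO level 27.3 to 831 times higher by the exact 95% interval of the count ratio. Col9a1, named here after its values were seen, had 0 reads in both KO libraries and 20 and 18 in WT cells, at least 13.1-fold lower in KO cells against the floor of 3 reads. The remaining chain Col9a3, likewise named after its values were seen, rose by 0.89 (65 and 52 KO reads against 34 and 27, adjusted p = 0.010). Sp3, a general factor that is the most abundant gene of the list per kb, was at 0.08 ± 0.06 and did not pass (adjusted p = 0.22). The list summed to 513 and 532 CPM in KO and 878 and 840 CPM in WT cells.

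The BRICHOS relatives of the pair moved far less. Of 8 listed genes 3 were tested, the integral membrane protein genes Itm2a, Itm2b and Itm2c, and the other 5 are not in the table. Itm2b, the most abundant, rose from 221 ± 0.183 to 286 ± 8.18 CPM (SD, n = 2), by 0.37 on the log2 scale (adjusted p = 6.4e-05). Itm2c fell by 0.48 (adjusted p = 7.1e-06), and Itm2a was at -0.16 (adjusted p = 0.098). None of the 3 was past the stricter limits.

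**Figure D3:**
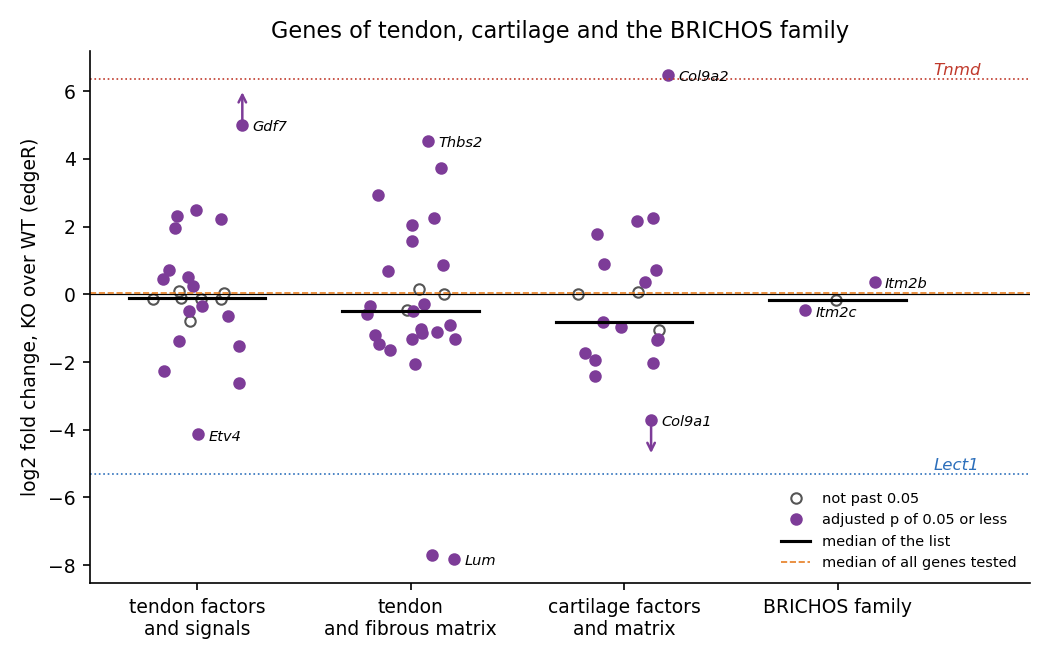
Log2 fold change of KO over WT for each tested gene of the 4 lists, filled where the adjusted p was 0.05 or less, with a black bar at the median of the list and dotted lines at Tnmd (6.37) and Lect1 (-5.30). Gdf7 and Col9a1, each at 0 reads in 1 genotype, are drawn at their bounds with arrows, and each list except the BRICHOS family spreads widely to both sides of the dashed median of all genes (0.02).

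Markers of other cell types that embryo cultures could hold were also counted, and single markers named here were chosen after their values were seen. The endothelial list, of interest since both proteins act on vessels, had 4 of 7 genes tested, 0 past an adjusted p of 0.05 and a summed level between 2.84 and 3.59 CPM in all 4 libraries. Vwf made up most of it, with 89 and 76 KO reads against 90 and 116, and Cdh5 had 0 in both KO libraries and 0 and 2 in WT cells. Skeletal muscle markers summed to 2.17 and 2.89 CPM in KO and 8.84 and 6.37 CPM in WT cells. Blood markers summed to 5.85 and 6.04 CPM in KO and 4.20 and 3.44 CPM in WT cells, with Csf1r higher by 1.74 and Ptprc lower (0 and 2 KO reads against 40 and 21). Epithelial markers summed to 3.43 and 3.08 CPM in KO and 0.848 and 1.34 CPM in WT cells. Among these Cdh1 rose by 3.64 (142 and 107 KO reads against 10 and 9), Krt18 had 0 KO reads against 3 and 7, and Krt5 had 6 and 5 KO reads against 0. Bone markers summed to 5.95 and 4.71 CPM in KO and 1.96 and 2.20 CPM in WT cells, with 3 of 3 tested genes higher. The bone markers Sp7, Bglap and Ibsp had too few reads to be tested. Neural markers summed to between 29.8 and 37.3 CPM, but Tubb3 fell by 2.82, from 33.3 to 4.74 CPM, and Stmn2 rose by 3.38, from 2.41 to 25.2 CPM. Fat markers summed to between 9.49 and 11.5 CPM, mostly from Lpl, with 367 and 331 KO reads against 243 and 293, while Fabp4 and Pparg fell. Smooth muscle markers summed to 4103 and 4104 CPM in KO and 6203 and 5428 CPM in WT cells, with 3 genes higher and 3 lower. All these counts of markers stand beside 34.3% of genes higher and 32.5% lower over all genes tested. The part of any of these cells in the levels of Tnmd and Lect1 was not tested.

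Since Tnmd is on the X chromosome, its neighbours and the chromosome as a whole were read beside it. Of 524 X-linked genes tested, 49.0% were higher and 18.1% lower in KO cells, with a median log2 fold change of 0.24, against 33.9%, 33.1% and 0.01 for the 14950 autosomal genes. Xist, the RNA that coats the inactive X chromosome, was read 66834 and 64527 times in the KO libraries and 25867 and 28761 times in the WT libraries. The listed Y-linked genes, named after their values were seen, had few reads in every library. Eif2s3y had 2 and 2 KO reads against 1 and 2 in WT cells, and Uty had 33 and 30 against 26 and 17. Ddx3y and Kdm5d are not among the 23537 genes with deposited counts. Each of those genes has at least 1 read, so absence does not tell 0 reads from a gene left out of the counting. The part of the sex of the embryos in the level of Tnmd was not tested.

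The genes nearest to Tnmd by gene order, 3 on each side, did not share the size of its change where tested. Tspan6, a tetraspanin 25.5 kb away, was at -0.09 ± 0.08 (SE, log2 fold change, adjusted p = 0.33). Srpx2, a secreted sushi-repeat protein 42.8 kb away, rose by 0.76, and Pcdh19, a protocadherin 162 kb away, fell by 0.15 (adjusted p = 0.048), a call that 8 of 12 alternatives lost. The other 3 of the nearest 6 genes, Gm14980, Gm16795 and 4930570D08Rik, had too few reads to be tested. Of 20 neighbours 12 were tested, of which 5 rose and 3 fell, beside 34.3% and 32.5% over all genes. The largest changes were those of Sytl4 and Tmem35, both named after their values were seen. The vesicle protein gene Sytl4, 70.8 kb away and so nearer in bases than Pcdh19, rose by 2.72, past the stricter limits. Tmem35 had 0 reads in both KO libraries and 405 and 345 in WT cells. It was at least 259-fold lower in KO cells against the floor of 3 reads over the group.

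Beside Lect1, smaller falls were found on 1 side. Sugt1, a co-chaperone 7.94 kb away, fell by 0.78 ± 0.07 (SE, log2, adjusted p = 4.9e-07), and the ETS factor Elf1 and the splicing factor Wbp4 fell by 0.62 and 0.76. On the other side the protocadherin Pcdh8 was at -1.18 ± 0.58 (adjusted p = 0.087) with 2 to 17 reads in each library, Gm10845 rose by 0.44, and Pcdh17 was not tested. Of 20 neighbours of Lect1 14 were tested, of which 3 rose and 7 fell, beside the same shares over all genes. Pcdh9, the only one of them past the stricter limits and named after its values were seen, fell by 4.33 but lies 13353 kb away, on the side of Pcdh8. Beyond the nearest 3 genes, falls were found on both sides and rises on the side of Sugt1.

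**Figure D4:**
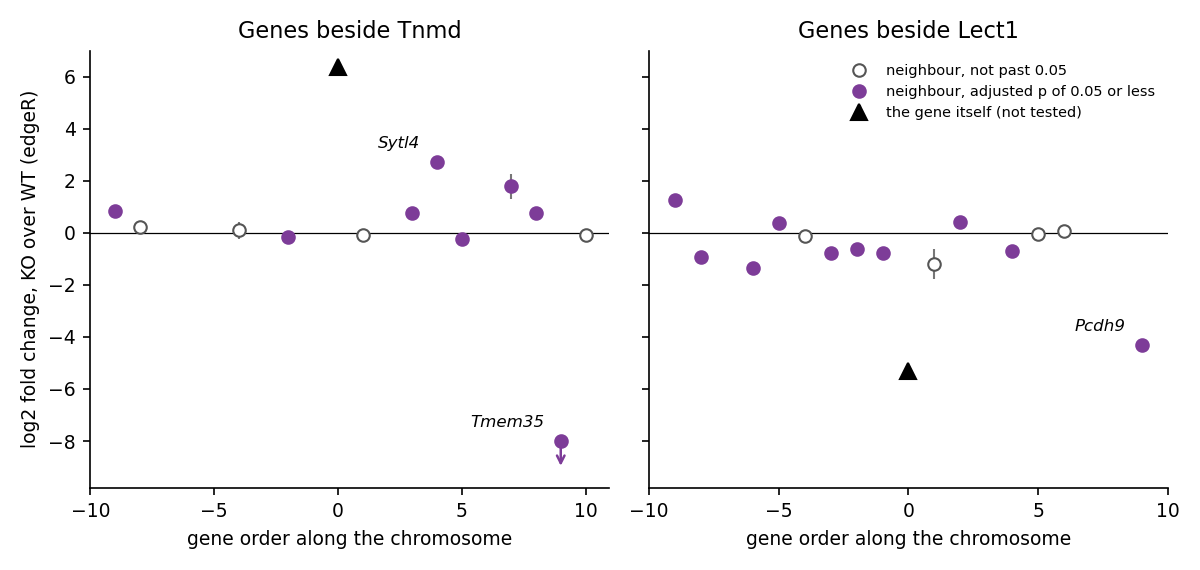
Log2 fold change (KO over WT, bars show the SE) for the 10 genes to either side of Tnmd and of Lect1 where tested, in gene order along the chromosome, with the gene itself as a triangle at 6.37 or -5.30. Filled points passed an adjusted p of 0.05, Tmem35 is drawn at its bound with an arrow, and all neighbours shown except Tmem35 lie nearer to 0 than the triangle of their panel.

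Of the 20 genes around Scx 18 were tested, of which 2 rose and 10 fell. Besides Bop1, the nearest were Heatr7a, which rose by 0.52, and Fam203a, the heat shock factor Hsf1 and the triglyceride enzyme Dgat1, which fell by 0.85, 0.43 and 0.39, while Scrt1 was not tested. Around Mkx 9 of 20 were tested, of which 2 rose and 5 fell. The small GTPase Rab18 was at 0.02 and the scaffold protein Mpp7 at 0.19 (adjusted p = 0.074), Epc1, a subunit of a histone acetyltransferase complex, rose by 0.26, and Rpl27-ps3, Armc4 and Fabp5l2 were not tested. Over the neighbours of all 4 genes, 12 of 53 rose and 25 fell, beside 34.3% and 32.5% over all genes. With libraries scaled to their totals 17 rose and 17 fell, beside 6628 and 3964 of the 15538 genes tested.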

How the data were processed

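RNA was sequenced from 2 KO and 2 WT libraries of MEFs, with ribosomal RNA removed. Per the submitters' processing notes and the methods, the authors aligned reads to mm9 with TopHat2 and Bowtie and counted them per Ensembl gene with HTSeq 0.5.4p3. The deposited raw counts of 23537 genes were used here, and 23393 identifiers were found in the mm9 annotation (GENCODE vM1). Deposited normalized counts of 1 WT library, with and without division by length, gave gene lengths for genes with at least 20 reads there, and the annotation gave the others. Columns with the authors' log2 ratios and p-values (DESeq2) were not used.

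The members and gene lists were chosen with earlier results of these data known. In R 4.3.3, edgeR 4.0.16 filtered low counts (filterByExpr, leaving 15538 genes and removing 7999), scaled by TMM and fitted genotype alone with glmQLFit and glmQLFTest, with Benjamini-Hochberg adjustment over all genes tested. CPM uses TMM-scaled totals. The SE is the size of the fitted change over the root of its F statistic. The common biological coefficient of variation was 0.0597, and replicate libraries differed by more than sampling noise (chi-square per gene 5.68 in KO, 11.8 in WT). Counts were simulated from the fitted dispersions for 15213 genes, of which 15015 had no true change. Of 49 genes with a true log2 change of 1, 42 were called, with 46 of 49 at 2 and 50 of 50 at 3 and at 6. There were 16 false calls. Far more genes differed in the real libraries, so these rates do not carry over to them.

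Genes named are the 4 members, Mbd4 and, in each list, the most abundant gene per kb with up to 4 rises and 4 falls. These rises and falls were past an adjusted p of 0.05 at a mean of at least 1 CPM. Also named are the nearest 3 genes on each side by gene order, and the 5 most alike in log2 CPM (prior count 2). Exceptions are stated, and 1 gene that the rule would name is not reported here. Alternatives were RLE, upper-quartile and total-count scaling, no filter, at least 10 counts in every library, DESeq2 1.42.0, limma-voom (limma 3.58.1), a block for the replicate number and the omission of each library in turn. Many genes named overlap another annotated gene, among them Scx, Bop1, Heatr7a, Elf1, Wbp4, Pcdh19, Gm10845, Mpp7, Gdf5, Gdf7, Eya2, Tgfb2, Tgfbr3, Tnc, Prelp, Runx3, Sox5, Sox6, Sp3, Gpc3 and Pcolce2, and their counts are uncertain to that extent. Intervals and floors cover counting error only.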

Additional observations from a re-analysis of the deposited data

How the results depend on the processing

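Tnmd stayed higher and Lect1 and Scx lower in KO cells under all 12 alternatives. Scaling to library totals, which moved the median of all genes from 0.02 to 0.17, gave log2 fold changes of 6.52 for Tnmd and -5.15 for Lect1, and the upper quartile gave -5.24 for Lect1. Leaving out each library gave 6.28 to 6.42 for Tnmd, -5.33 to -5.29 for Lect1, -1.14 to -0.91 for Scx and -0.20 to 0.02 for Mkx. Deviations of same-numbered libraries correlated at -0.0287 across genes, which cannot show whether the samples were paired by culture or preparation. With the replicate number as a block Tnmd was at 6.37, Lect1 at -5.30, Scx at -1.01 and Mkx at -0.07, with 5299 genes higher and 4999 lower in all. Counts of genes higher and lower in the lists and beside the members stayed within 1.5 times their value. Among single genes named, Col9a3 and the cell type markers aside, calls were lost for Pcdh19 (8 alternatives) and Epc1 (1). Calls were gained for Mpp7, Pcdh8, Rab18, Sp3 and Tspan6 under 1 or 2 each, and the cause was not tested. Depth limits Pcdh8 and genes with 0 to 3 reads in a group, and 2 libraries per genotype limit every comparison.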
